A study of Angelica pubescens with 12 samples.

Results

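Roots take up and redistribute water and mineral ions through families of membrane proteins, and they store or bind metals in ferritins and metallothioneins. Of the 67432 unigenes in the count table of Angelica pubescens roots, 246 had a best Swiss-Prot match whose description named one of these families: aquaporin, potassium channel or transporter, sulfate, zinc, copper, boron or other metal transporter, ferric reductase, ferritin, vacuolar iron transporter, a nicotianamine protein, metal tolerance protein or metallothionein. A further condition was at least 30 counts summed over 12 libraries, which all 246 met, the lowest with 30.3. The rule uses these descriptions and the summed count, and no difference between areas. By what is moved or bound, they comprised 49 unigenes for water, 66 for potassium, 20 for sulfate, 11 for boron, 22 for zinc, 32 for divalent metals, 2 for copper, 21 for iron, 14 for nicotianamine and its metal complexes, and 9 metallothioneins.

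The plant is an umbellifer whose dried root is used as a herbal medicine, and the study set its roots from 4 producing areas against each other: Chongqing, Gansu, Shanxi and Hubei. All roots were 2 years old, untreated as far as the labels say, and no cultivar, genotype or soil is named. Each area gave 3 RNA-seq libraries of whole root tissue. The labels do not say whether these came from separate plants, so p-values measure the spread between these libraries, which may be technical.

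Aquaporins are pores that let water, and in some cases small solutes such as boric acid, pass through a membrane along its gradient; the plasma membrane type (PIP) and the vacuole membrane type (TIP) carry most of the water that crosses root cells. Potassium enters root cells through voltage-gated channels and through carriers of the KUP/HAK family, sulfate through proton-coupled carriers, and zinc, iron and manganese through ZIP and Nramp proteins. Iron(III) is first reduced at the root surface by ferric reductases in plants other than grasses. Inside the plant, metals travel bound to nicotianamine, and excess is put into vacuoles, held in ferritin or bound by cysteine-rich metallothioneins.

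Library totals were 19920136 to 23319714 estimated counts, and the scaling factors between libraries were 0.941 to 1.05. Spearman correlations over unigenes were 0.942 to 0.960 between libraries of the same area and 0.711 to 0.769 between libraries of different areas. Levels below are counts scaled to library size (CPM) of each library, and ± is the SD over 3 libraries of an area. Levels of different unigenes are compared as the deposited FPKM, which allow for length. Summed levels, shares of a sum and the ranking that chose the named unigenes are in CPM unless FPKM is given, and so depend on length. A unigene is one assembled transcript sequence, cited here by its assembly number (DN) after the name of its best match, and reads of paralogs, alleles or fragments of the same gene can be split between unigenes, so the values of those that share a best match are uncertain. A log2 fold change of 1 area over another is positive where the area named before "over" was higher, and a unigene was called where the adjusted p of edgeR's quasi-likelihood test was under 0.05.

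Of the 246 unigenes, 236 had enough reads to be tested and 201 of those (85.2%) were called different between areas, against 70.4% of all 60756 tested unigenes. With a mean of at least 10 CPM the shares were 107 of 111 (96.4%) and 91.5% of all. The mean of the highest area was at least 2 times that of the lowest for 191 of 236 (80.9%, against 74.0% of all), and at least 10 times for 87 (36.9%, against 29.8%). The area with the highest mean was Chongqing for 42, Gansu for 43, Shanxi for 53 and Hubei for 98, so Hubei held 41.5% of the highest levels among these genes, against 27.3% among all tested unigenes. The 10 untested unigenes had 29 to 80 rounded counts in all 12 libraries, among them a ferritin (DN25876) with 61 of its 62 counts in 1 Gansu library.

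Pair by pair, 74 (31.4%) were higher and 61 (25.8%) lower in Chongqing over Gansu, where 19.4% and 19.1% of all tested unigenes were. In Chongqing over Shanxi 68 (28.8%) were higher and 68 (28.8%) lower, against 23.0% and 24.8% of all. In these pairs the 2 directions were close to balanced. Against Hubei they were not: Chongqing over Hubei had 50 (21.2%) higher and 98 (41.5%) lower, against 23.6% and 25.9% of all. Gansu over Hubei had 55 (23.3%) higher and 106 (44.9%) lower, against 24.0% and 26.5%, and Shanxi over Hubei had 54 (22.9%) higher and 106 (44.9%) lower, against 21.0% and 23.5%. Gansu over Shanxi lay between, with 67 (28.4%) higher and 87 (36.9%) lower, against 21.2% and 22.9%. The median log2 fold changes were 0.05 (Chongqing over Gansu), -0.03 (Chongqing over Shanxi), -0.35 (Chongqing over Hubei), -0.12 (Gansu over Shanxi), -0.40 (Gansu over Hubei) and -0.42 (Shanxi over Hubei), where the medians of all tested unigenes were 0.00 or 0.01. The 6 pairs share libraries and are not independent of each other.

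**Figure D1:**
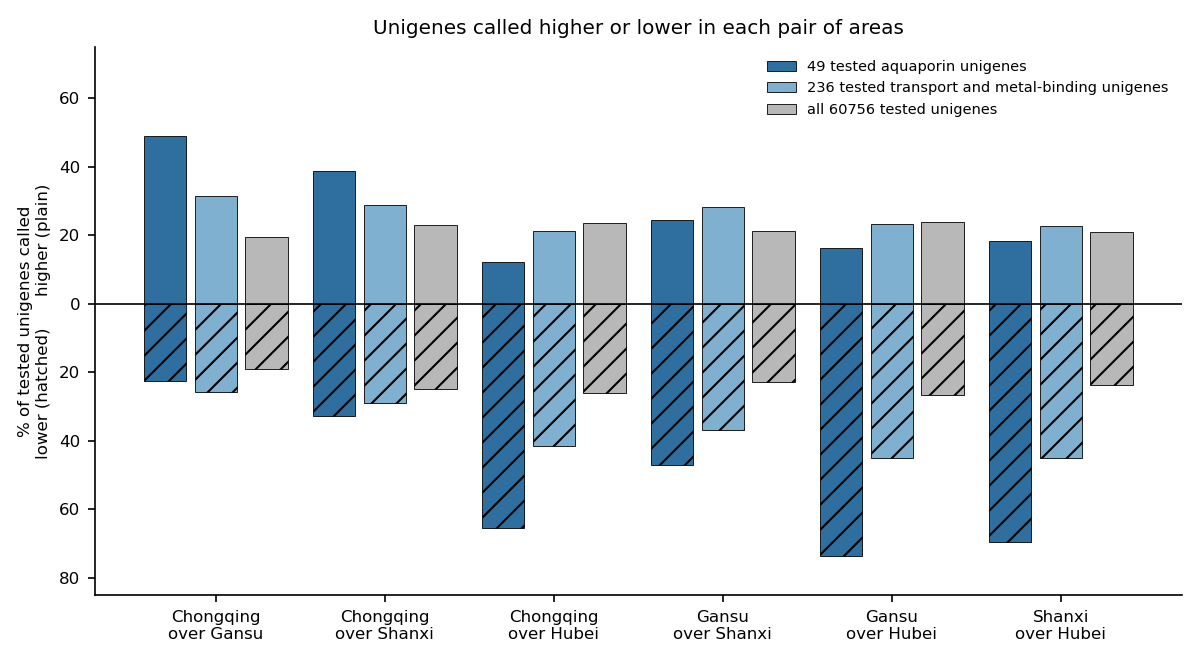
Bars give the percent of tested unigenes called higher (plain, upward) or lower (hatched, downward) in each pair of areas, for the 49 aquaporins, for all 236 tested transport and metal-binding unigenes and for all 60756 tested unigenes. In each pair with Hubei the hatched bar of the aquaporins is the longest, reaching 65.3% in Chongqing over Hubei, 73.5% in Gansu over Hubei and 69.4% in Shanxi over Hubei.

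Summed over all 246 unigenes, the level was 23577 ± 986 CPM in Chongqing, 12244 ± 765 CPM in Gansu, 11832 ± 640 CPM in Shanxi and 18687 ± 1173 CPM in Hubei. Metallothioneins and aquaporins made up most of that sum in every area, so its order follows a few abundant unigenes. In FPKM, 7 of the 246 were among the 100 most abundant unigenes of the roots and 16 among the 1000 most abundant. The metallothionein of type 2 DN21621 ranked 3 of all unigenes (mean 6740 FPKM) and DN10661 ranked 7 (3974 FPKM), while the most abundant aquaporin, TIP1-1 DN14168, ranked 54 (750 FPKM).

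**Figure D2:**
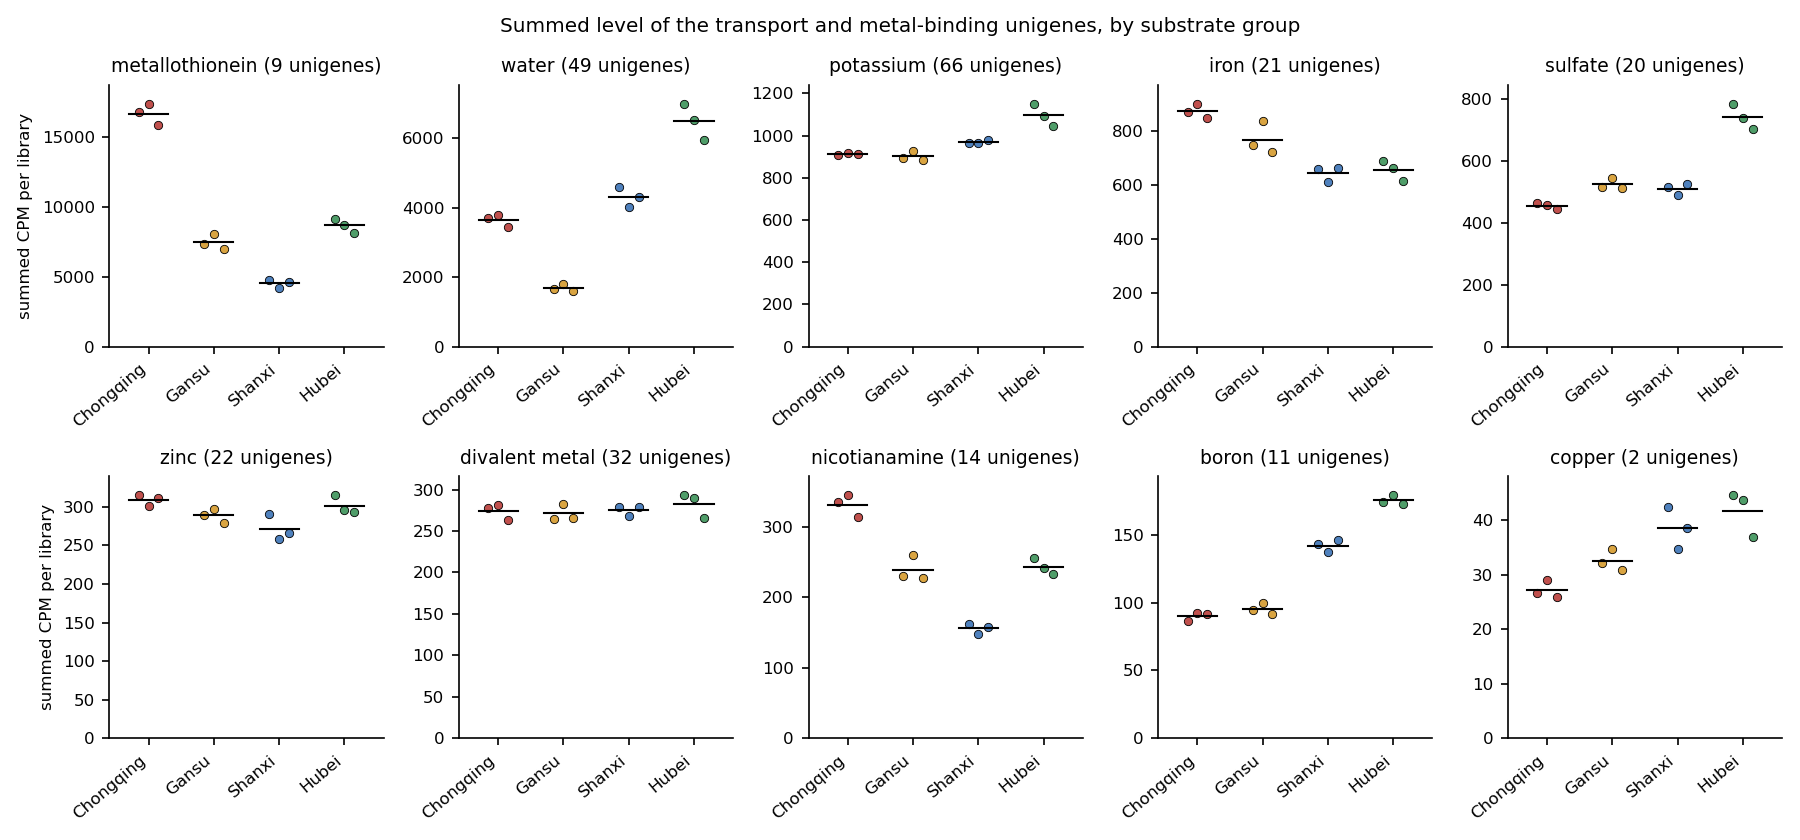
Summed CPM per library (points) of each substrate group, with the mean of each area as a line and axes that start at 0; each panel has its own scale. Aquaporins were lowest in Gansu (1677 CPM) and highest in Hubei (6486 CPM), metallothioneins were highest in Chongqing (16652 CPM), and zinc and divalent metal transporters had sums in CPM that lay close together in all 4 areas.

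Most aquaporins had their highest mean in Hubei, and Gansu was the area that most often had the lowest. Of 49 tested, 48 were called between areas (98.0%), against 70.4% of all tested unigenes. The highest mean was in Hubei for 34 (69.4%, against 27.3% of all). Gansu was lowest for 23, where it was for 14215 of all 60756. Chongqing over Hubei had 6 higher and 32 lower (65.3%, against 25.9% of all). Gansu over Hubei had 8 higher and 36 lower (73.5%, against 26.5%), and Shanxi over Hubei 9 higher and 34 lower (69.4%, against 23.5%). Chongqing over Gansu ran the other way, with 24 higher and 11 lower (49.0% and 22.4%, against 19.4% and 19.1% of all). Chongqing over Shanxi had 19 higher and 16 lower (38.8% and 32.7%, against 23.0% and 24.8%). Gansu over Shanxi had 12 higher and 23 lower (24.5% and 46.9%, against 21.2% and 22.9%). The median log2 fold change over the 49 was 0.46 in Chongqing over Gansu, 0.05 in Chongqing over Shanxi, -1.04 in Chongqing over Hubei, -0.71 in Gansu over Shanxi, -1.95 in Gansu over Hubei and -1.30 in Shanxi over Hubei. Leaving out any 1 library kept the counts of lower aquaporins at 31 to 33 in Chongqing over Hubei, 34 to 36 in Gansu over Hubei and 33 to 35 in Shanxi over Hubei. The summed level was 3650 ± 182 CPM in Chongqing, 1677 ± 101 CPM in Gansu, 4310 ± 286 CPM in Shanxi and 6486 ± 514 CPM in Hubei, with no overlap between the areas' libraries. In whole root tissue, fewer cells that express a gene and less of its RNA per cell cannot be told apart.

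The 22 plasma membrane aquaporins (PIP) were all called, against 70.4% of all tested unigenes and 91.5% of those with at least 10 CPM. Hubei held the highest mean for 17 (77.3%, against 27.3% of all). Gansu over Hubei and Shanxi over Hubei each had 18 of the 22 lower (81.8%), against 26.5% and 23.5% of all. Chongqing over Hubei had 15 lower (68.2%, against 25.9%). PIP1-4 (DN20709), the most abundant of them, had 561, 555 and 528 CPM in the Chongqing libraries, 251, 272 and 254 CPM in Gansu, 572, 486 and 527 CPM in Shanxi and 1045, 962 and 862 CPM in Hubei. Its Hubei libraries all lay above, and its Gansu libraries all below, those of the other areas, while the Chongqing and Shanxi libraries overlapped. Its log2 fold change was -1.88 ± 0.08 (SE) in Gansu over Hubei (adjusted p = 4.9e-10) and 0.05 ± 0.08 in Chongqing over Shanxi (adjusted p = 0.61). PIP2-7 (DN14689) differed more, with 70.6, 65.0 and 68.1 CPM in Chongqing, 9.69, 9.89 and 6.41 CPM in Gansu, 106, 104 and 98.7 CPM in Shanxi and 469, 445 and 456 CPM in Hubei. No area overlapped another, and the log2 fold change in Gansu over Hubei was -5.73 ± 0.13 (adjusted p = 2e-12).

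A PIP-type aquaporin (DN22928) was also lowest in Gansu and highest in Hubei, with a wider range: 7.67, 8.14 and 7.24 CPM in Chongqing, 0.146, 0.152 and 0.288 CPM in Gansu, 2.42, 1.86 and 3.83 CPM in Shanxi and 60.2, 71.9 and 56.5 CPM in Hubei. All 4 areas were separate, and the log2 fold change in Gansu over Hubei was -8.25 ± 0.29 (adjusted p = 7.8e-11). PIP2-4 (DN15078) had another pattern, with 184 ± 17.2 CPM in Chongqing, 34.1 ± 2.08 CPM in Gansu, 29.3 ± 3.70 CPM in Shanxi and 208 ± 19.4 CPM in Hubei (SD, n = 3 each). Chongqing over Gansu (log2 fold change 2.43 ± 0.11, adjusted p = 1.2e-09) and Chongqing over Shanxi (2.65 ± 0.11, adjusted p = 3.2e-10) were called for it, but not Chongqing over Hubei (-0.18 ± 0.10, adjusted p = 0.16). PIP1-5 (DN19343) ran against most of the family, with 1.80, 4.92 and 3.73 CPM in Chongqing, 61.4, 72.7 and 65.0 CPM in Gansu, 65.9, 53.3 and 56.0 CPM in Shanxi and 42.7, 29.7 and 37.0 CPM in Hubei. Its Chongqing libraries lay below all others (log2 fold change -4.25 ± 0.24 in Chongqing over Gansu, adjusted p = 1.6e-08). A second unigene of the same best match (DN16254) had its highest mean in Chongqing, at 316 ± 19.8 CPM, and the sum over the 4 unigenes that share it turned the direction of Chongqing over Gansu to 0.72 and of Chongqing over Hubei to 0.93.

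Vacuolar aquaporins (TIP) numbered 14, all called, against 70.4% of all tested unigenes. Of these, 8 were highest in Hubei (57.1%, against 27.3% of all) and 4 in Shanxi (28.6%, against 24.1%). Gansu was lowest for 9, where it was for 14215 of all 60756. Chongqing over Hubei and Gansu over Hubei each had 11 of the 14 lower (78.6%), against 25.9% and 26.5% of all. TIP1-1 (DN14168) had 1055, 1056 and 954 CPM in Chongqing, 263, 318 and 248 CPM in Gansu, 757, 644 and 653 CPM in Shanxi and 1842, 1754 and 1445 CPM in Hubei. The 4 areas did not overlap, and the log2 fold change was -2.60 ± 0.11 in Gansu over Hubei (adjusted p = 6.9e-10) and 1.89 ± 0.11 in Chongqing over Gansu (adjusted p = 2.2e-08). TIP2-1 (DN25381) was highest in Shanxi instead, with 78.7, 76.6 and 72.9 CPM in Chongqing, 132, 149 and 135 CPM in Gansu, 1208, 1094 and 1180 CPM in Shanxi and 416, 381 and 354 CPM in Hubei. Again no area overlapped another, and Chongqing over Shanxi gave -3.93 ± 0.08 on the log2 scale (adjusted p = 8.9e-13). A further TIP1-1 unigene (DN10127) was also highest in Shanxi, with 74.0 ± 2.91 CPM in Chongqing, 27.6 ± 2.40 CPM in Gansu, 501 ± 20.7 CPM in Shanxi and 146 ± 14.1 CPM in Hubei. Its log2 fold change in Gansu over Shanxi was -4.18 ± 0.09 (adjusted p = 1.7e-12). TIP2-2 (DN12086) had 79.8 ± 2.62 CPM in Chongqing, 22.5 ± 2.17 CPM in Gansu, 70.1 ± 5.79 CPM in Shanxi and 339 ± 37.2 CPM in Hubei, a log2 fold change of -3.91 ± 0.10 in Gansu over Hubei (adjusted p = 7.3e-12).

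**Figure D3:**
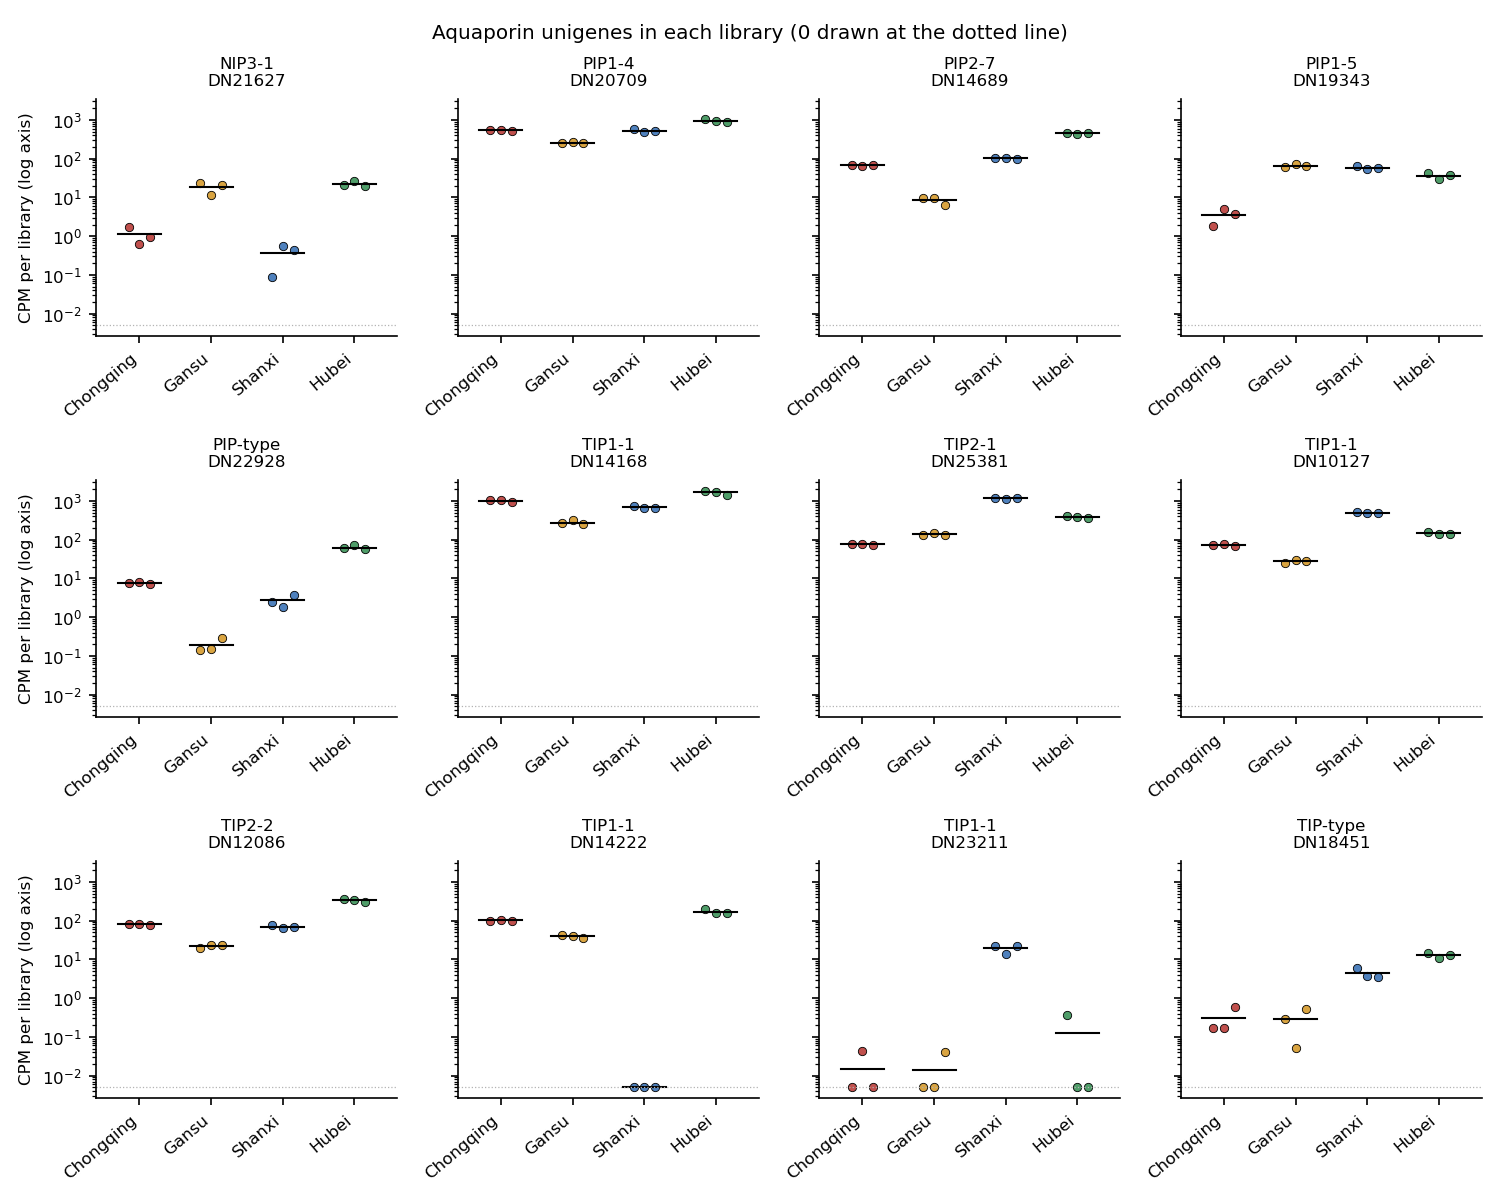
CPM of 12 aquaporin unigenes in each library (points) with the mean of each area (line), on a shared log axis; libraries with 0 counts are drawn at the dotted line. PIP2-7, the PIP-type unigene, PIP1-4, TIP1-1 DN14168 and TIP2-2 have Gansu lowest and Hubei highest, whereas TIP2-1 and TIP1-1 DN10127 have their highest points in Shanxi and TIP1-1 DN14222 has no read there.

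Some vacuolar aquaporins were absent from the reads of an area. TIP1-1 DN14222 had 99.8, 105 and 99.3 CPM in Chongqing, 43.2, 41.1 and 35.3 CPM in Gansu, 0 counts in all 3 Shanxi libraries and 198, 161 and 159 CPM in Hubei. Against a floor of 3 counts over the Shanxi libraries its level in Hubei was at least 3948-fold higher. TIP1-1 DN23211, with the same best match, was found almost entirely in Shanxi, with 0, 0.0436 and 0 CPM in Chongqing, 0, 0 and 0.0411 CPM in Gansu, 21.8, 14.0 and 22.7 CPM in Shanxi and 0.373, 0 and 0 CPM in Hubei. Chongqing held 1 count of it and Gansu 1, and the ratio of Shanxi to Chongqing was 1356 with an exact 95% counting interval of 243 to 53616. Its Shanxi over Hubei log2 fold change was 7.28 ± 0.62 (adjusted p = 6.2e-07) and became 11.79 without Hubei library 1 and 6.69 without Hubei library 3. Summed over the 3 unigenes of this best match, Shanxi over Hubei was -3.07, Chongqing over Shanxi 2.39 and Gansu over Shanxi 1.05. Such floors and intervals cover counting error only.

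Of the 9 NIP aquaporins, a type known to pass boric acid, silicic acid or glycerol, all were called, against 70.4% of all tested unigenes. Hubei held the highest mean for 5 (55.6%, against 27.3% of all). NIP3-1 (DN21627) had 1.76, 0.610 and 0.974 CPM in Chongqing, 23.3, 11.5 and 21.0 CPM in Gansu, 0.0896, 0.551 and 0.440 CPM in Shanxi and 20.8, 25.8 and 19.4 CPM in Hubei. Gansu and Hubei overlapped each other and lay above Chongqing and Shanxi (Gansu over Shanxi 5.66 ± 0.45 on the log2 scale, adjusted p = 2.9e-07, and Gansu over Hubei -0.24 ± 0.30, adjusted p = 0.54). Other NIP3-1 unigenes differed from it. DN20264 had 314 counts in Chongqing, 1 in Shanxi and 356 in Hubei, and DN11097 was highest in Hubei and lowest in Chongqing (6.61 times). NIP4-2 (DN11777) had 0 counts in the 9 libraries of Chongqing, Gansu and Shanxi, against 6.05, 5.13 and 5.93 CPM in Hubei, which makes Hubei at least 133-fold higher than Chongqing, 123-fold higher than Gansu and 131-fold higher than Shanxi. The 4 SIP unigenes, of the endoplasmic reticulum, all had their highest mean in Hubei and varied less, between 65.5 ± 2.77 CPM in sum in Shanxi and 109 ± 9.04 CPM in Hubei.

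Potassium genes were called in both directions in every pair. Of 61 tested, 50 were called between areas (82.0%), against 70.4% of all tested unigenes and 81.9% of those with at least 1 CPM. Shanxi held the highest mean for 20 (32.8%) and Hubei for 18 (29.5%), where the shares among all tested were 24.1% and 27.3%. Median log2 fold changes lay between -0.32 in Gansu over Shanxi and 0.15 in Chongqing over Gansu. The summed level was 914 ± 3.98 CPM in Chongqing, 902 ± 24.4 CPM in Gansu, 970 ± 8.45 CPM in Shanxi and 1096 ± 53.1 CPM in Hubei.

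Among 32 tested potassium channels, 24 were called (75.0%, against 70.4% of all tested unigenes). Of these 32, 15 had their highest mean in Shanxi (46.9%, against 24.1% of all). Among 29 tested carriers, 26 were called (89.7%) and 14 had their highest mean in Hubei (48.3%, against 27.3% of all). The most abundant channel unigene by FPKM was a channel subunit beta (DN21960), a subunit that binds to the pore protein, with 47.8 ± 0.913 CPM in Chongqing, 94.3 ± 3.93 CPM in Gansu, 62.5 ± 2.99 CPM in Shanxi and 85.5 ± 4.07 CPM in Hubei. A pair of unigenes matched KAT4, a rice channel of the Shaker type, and both were lowest in Hubei. KAT4 DN24015 had 24.9, 23.3 and 23.2 CPM in Chongqing, 14.1, 16.1 and 16.8 CPM in Gansu, 46.5, 59.9 and 46.6 CPM in Shanxi and 1.82, 0.357 and 0.768 CPM in Hubei. KAT4 DN24049 had 8.02, 10.4 and 8.68 CPM in Chongqing, 22.4, 17.1 and 14.4 CPM in Gansu, 11.2, 8.64 and 6.65 CPM in Shanxi and 0.419, 0.312 and 0.213 CPM in Hubei. Every Hubei library lay below every other library for both. The log2 fold change of Shanxi over Hubei for DN24015 was 5.71 ± 0.29 (adjusted p = 4.5e-09), and 6.48 without Hubei library 1. For DN24049 Shanxi over Hubei was 4.80 ± 0.31 (adjusted p = 4.9e-08), while the 2 unigenes were lower and higher in Gansu over Shanxi, where their sum gave -0.80.

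SKOR (DN4632), an outward channel that loads potassium into the xylem in Arabidopsis, was highest in Chongqing, with 23.7, 20.2 and 22.2 CPM in Chongqing, 7.16, 7.45 and 7.07 CPM in Gansu, 3.72, 4.36 and 4.71 CPM in Shanxi and 1.35, 1.61 and 1.32 CPM in Hubei. No area overlapped another, and Chongqing over Hubei gave a log2 fold change of 3.94 ± 0.15 (adjusted p = 1.7e-10). KCO3 (DN22768), a tandem-pore potassium channel named from rice, had 10.2 ± 1.56 CPM in Chongqing, 8.47 ± 0.443 CPM in Gansu, 11.8 ± 1.14 CPM in Shanxi and 0 counts in Hubei, so that Shanxi was at least 264-fold higher than Hubei. AKT5 (DN22003), a Shaker channel, split the areas otherwise, with 2 counts over the Chongqing libraries, 7.73 ± 1.81 CPM in Gansu, 2 counts over the Shanxi libraries and 7.52 ± 2.01 CPM in Hubei.

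Of the KUP/HAK carriers, which co-transport potassium with protons, potassium transporter 8 (DN18788) had 32.7, 35.0 and 34.2 CPM in Chongqing, 21.7, 24.2 and 24.1 CPM in Gansu, 36.6, 33.8 and 35.8 CPM in Shanxi and 126, 112 and 105 CPM in Hubei. Hubei lay above all others (log2 fold change -2.29 ± 0.08 in Gansu over Hubei, adjusted p = 8.9e-11). Potassium transporter 5 (DN24630), whose rice match takes up potassium at low supply, was found mostly in Hubei and Shanxi, with 0.0429, 0.0871 and 0.0424 CPM in Chongqing, 0.341, 0.355 and 0.288 CPM in Gansu, 2.64, 2.50 and 4.80 CPM in Shanxi and 20.3, 23.7 and 23.3 CPM in Hubei. The areas were separate, with -8.48 ± 0.37 in Chongqing over Hubei (adjusted p = 6e-10). Less abundant unigenes of that name differed in area. DN21199_c0_g1 was highest in Chongqing and lowest in Hubei (4.30 times), and DN25125 had counts in Chongqing only, whereas DN21199_c0_g2 and DN12905 were highest in Hubei. Potassium transporter 7 (DN20296) was highest in Gansu, with 0.386, 0.0871 and 1.74 CPM in Chongqing, 34.5, 39.7 and 34.9 CPM in Gansu, 2.37, 1.95 and 2.55 CPM in Shanxi and 2.93, 0.803 and 0.0427 CPM in Hubei. Its Gansu over Shanxi log2 fold change was 3.99 ± 0.63 (adjusted p = 0.00019), and it was 1 of 7 unigenes of that best match, whose sum differed by 0.58. Potassium transporter 17 (DN21564) was highest in Chongqing, with 14.0, 15.9 and 16.4 CPM in Chongqing, 0.316 ± 0.280 CPM in Gansu, 0.0440 ± 0.0763 CPM in Shanxi and 0.106 ± 0.118 CPM in Hubei. The other unigene of that match (DN21973), with 79.1 ± 2.81 CPM in Chongqing, 96.6 ± 7.77 CPM in Gansu, 64.7 ± 2.46 CPM in Shanxi and 113 ± 9.61 CPM in Hubei, was lower in Chongqing than in Hubei (log2 fold change -0.51 ± 0.08, adjusted p = 9.7e-05). The sum of both gave -0.15 for Chongqing over Hubei and -0.04 for Chongqing over Gansu.

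Sulfate transporters were lowest in Chongqing for 10 of 20 tested unigenes, where 16289 of all 60756 were. Hubei was highest for 9 (45.0%, against 27.3% of all), and 18 were called (90.0%, against 70.4%). Chongqing over Gansu had 2 higher and 11 lower, Chongqing over Shanxi 2 higher and 10 lower, and Chongqing over Hubei 2 higher and 9 lower, with median log2 fold changes of -0.55, -0.73 and -1.05 in that order. Between the other areas the directions were mixed, with 7 higher and 6 lower in Gansu over Shanxi, 4 and 7 in Gansu over Hubei, and 5 and 9 in Shanxi over Hubei. Sulfate transporter 3.1 (DN19399), a carrier of the chloroplast envelope in Arabidopsis, had 15.4, 15.5 and 13.5 CPM in Chongqing, 27.5, 30.4 and 26.4 CPM in Gansu, 59.8, 50.6 and 55.9 CPM in Shanxi and 202, 185 and 171 CPM in Hubei. The 4 areas were separate, and Chongqing over Hubei was -3.65 ± 0.10 on the log2 scale (adjusted p = 7.4e-12).

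A pair of unigenes matched sulfate transporter 3.5, which in Arabidopsis acts with another carrier in moving sulfate from root to shoot. The more abundant one, DN22286, was highest in Chongqing and varied little, with 256, 256 and 252 CPM in Chongqing, 194, 206 and 196 CPM in Gansu, 182, 194 and 201 CPM in Shanxi and 227, 205 and 204 CPM in Hubei. Its log2 fold change in Chongqing over Shanxi was 0.41 ± 0.06 (adjusted p = 7.8e-05). The other, DN24420, had 17.2 ± 0.611 CPM in Chongqing, 24.0 ± 2.47 CPM in Gansu, 80.0 ± 6.28 CPM in Shanxi and 99.8 ± 3.29 CPM in Hubei, and Chongqing over Shanxi was -2.22 ± 0.09 (adjusted p = 2.2e-10). Their sum gave 0.02 in Chongqing over Shanxi. The low affinity sulfate transporter 3 (DN15747) was lowest in Chongqing, with 5.30 ± 0.607 CPM in Chongqing, 19.5 ± 2.87 CPM in Gansu, 9.89 ± 0.584 CPM in Shanxi and 24.9 ± 1.66 CPM in Hubei. Sulfate transporter 1.3 (DN22832), a carrier of the phloem in Arabidopsis, was highest in Gansu, with 67.7 ± 4.38 CPM in Chongqing, 96.0 ± 1.84 CPM in Gansu, 44.9 ± 2.60 CPM in Shanxi and 68.0 ± 7.22 CPM in Hubei. Sulfate transporter 4.2 (DN19460), which releases sulfate from the vacuole in Arabidopsis, was likewise highest in Gansu, with 22.7 ± 2.87 CPM in Chongqing, 43.9 ± 1.48 CPM in Gansu, 18.8 ± 2.36 CPM in Shanxi and 11.3 ± 1.83 CPM in Hubei (log2 fold change 1.96 ± 0.13 in Gansu over Hubei, adjusted p = 5.8e-08). Another unigene of that name (DN21283_c0_g1_i10), with a mean of 11.8 FPKM against 6.52 FPKM for DN19460, was highest in Hubei and lowest in Chongqing (2.09 times). A further one (DN21471) was highest in Gansu.

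Boron transporters export borate from cells, and BOR1 loads it into the xylem in Arabidopsis. Of 11 unigenes 9 were called (81.8%), against 70.4% of all tested unigenes. The summed level of the 11 was 90.2 ± 3.19 CPM in Chongqing, 95.6 ± 4.38 CPM in Gansu, 142 ± 4.27 CPM in Shanxi and 175 ± 2.95 CPM in Hubei. BOR1 (DN20324) had 50.2 ± 2.64 CPM in Chongqing, 19.4 ± 1.44 CPM in Gansu, 53.7 ± 1.62 CPM in Shanxi and 72.2 ± 1.62 CPM in Hubei. Gansu was below and Hubei above all other libraries (log2 fold change -1.90 ± 0.07 in Gansu over Hubei, adjusted p = 1.9e-10). Other BOR1 unigenes had other orders, since DN24301 was highest in Shanxi and lowest in Chongqing, and DN22755 was highest in Chongqing and lowest in Shanxi. BOR2 (DN15964) was highest in Hubei, with 0.301 ± 0.118 CPM in Chongqing, 0.160 ± 0.0675 CPM in Gansu, 2.65 ± 0.285 CPM in Shanxi and 24.4 ± 1.15 CPM in Hubei, and Gansu over Hubei was -7.24 ± 0.27 (adjusted p = 1.4e-10). BOR2 unigenes differed in area. DN23054, with a mean of 9.41 FPKM against 2.67 FPKM for DN15964, hardly varied (highest area 1.05 times the lowest). DN23828 and DN22762 were also highest in Hubei, but DN22531 in Shanxi and DN13842 in Chongqing. BOR4, which exports boron at toxic supply in Arabidopsis, matched a pair of unigenes with different areas at the top. DN23747 had 0.171, 0.0436 and 0.169 CPM in Chongqing, 6.28, 5.48 and 9.20 CPM in Gansu, 21.9, 24.7 and 24.4 CPM in Shanxi and 12.6, 17.2 and 13.5 CPM in Hubei, with -7.46 ± 0.32 in Chongqing over Shanxi (adjusted p = 6.5e-10). DN21245 had 1.57 ± 0.0336 CPM in Chongqing, 27.6 ± 2.80 CPM in Gansu, 2.03 ± 0.951 CPM in Shanxi and 5.97 ± 0.938 CPM in Hubei. Both had their lowest mean in Chongqing.

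Zinc transporters had summed levels between 309 ± 7.30 CPM in Chongqing and 271 ± 17.2 CPM in Shanxi. Of 20 tested unigenes 18 were called (90.0%), against 70.4% of all. The order of the areas depended on the unit, since the sum in FPKM was 166 ± 6.40 in Chongqing, 169 ± 3.11 in Gansu, 168 ± 4.38 in Shanxi and 217 ± 6.56 in Hubei. Zinc transporter 4 (DN21315), a ZIP protein that rises at low zinc in Arabidopsis, had 102, 99.0 and 104 CPM in Chongqing, 39.6, 34.7 and 40.7 CPM in Gansu, 27.2, 26.4 and 28.9 CPM in Shanxi and 20.9, 21.0 and 22.6 CPM in Hubei. The areas did not overlap, and Chongqing was higher than each of the others, with a log2 fold change of 2.24 ± 0.08 in Chongqing over Hubei (adjusted p = 5.7e-11). Zinc transporter 5 (DN20556), another ZIP protein, had 4.07, 5.05 and 3.64 CPM in Chongqing, 26.4, 27.3 and 23.9 CPM in Gansu, 0.179, 0 and 0.132 CPM in Shanxi and 25.4, 25.1 and 24.5 CPM in Hubei. Gansu and Hubei overlapped, and Shanxi was nearly at 0 (log2 fold change 7.91 ± 0.30 in Gansu over Shanxi, adjusted p = 2.1e-10; 8.51 without Shanxi library 1). Zinc transporter 1 (DN7061) was higher in Hubei and Shanxi than in the other areas, with 2.01, 1.52 and 0.974 CPM in Chongqing, 1.32, 1.52 and 2.79 CPM in Gansu, 11.2, 9.95 and 10.7 CPM in Shanxi and 22.4, 19.0 and 17.1 CPM in Hubei. The putative zinc transporter At3g08650 matched 6 unigenes, of which the most abundant (DN22692) was highest in Shanxi, with 74.6 ± 3.89 CPM in Chongqing, 68.7 ± 5.66 CPM in Gansu, 108 ± 9.91 CPM in Shanxi and 55.0 ± 5.65 CPM in Hubei. Of the others, DN25156 was also highest in Shanxi, but DN20763 was highest in Hubei, DN21879 and DN21187 in Gansu and DN25388 in Chongqing.

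Divalent metal transporters had sums of 274 ± 10.1 CPM in Chongqing, 272 ± 10.3 CPM in Gansu, 275 ± 6.33 CPM in Shanxi and 283 ± 15.1 CPM in Hubei. Of 30 tested unigenes 26 were called (86.7%), against 70.4% of all. In FPKM the sums were 179 ± 5.97 in Chongqing, 181 ± 4.28 in Gansu, 155 ± 3.47 in Shanxi and 177 ± 5.36 in Hubei, so that Shanxi was lowest in that unit. Of the Nramp proteins, which bring manganese and iron into the cytosol, 10 of 13 (76.9%) were called, against 70.4% of all tested unigenes, and of the metal tolerance proteins, which move zinc or manganese out of it, 16 of 17. Nramp1 (DN13446), a manganese carrier of the root in Arabidopsis, was lowest in Shanxi, with 13.8, 13.4 and 15.0 CPM in Chongqing, 17.7, 20.1 and 15.7 CPM in Gansu, 4.26, 3.39 and 3.00 CPM in Shanxi and 15.4, 13.4 and 14.9 CPM in Hubei. Shanxi lay apart from the other areas, with a log2 fold change of 2.33 ± 0.15 in Gansu over Shanxi (adjusted p = 3.4e-08). Another Nramp1 unigene (DN20473) was instead highest in Hubei and lowest in Chongqing (6.12 times). Nramp3 (DN23391), which releases metals from the vacuole in Arabidopsis, was lowest in Hubei, with 24.8 ± 2.50 CPM in Chongqing, 29.0 ± 3.22 CPM in Gansu, 27.7 ± 2.45 CPM in Shanxi and 16.0 ± 1.54 CPM in Hubei.

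Metal tolerance proteins 9 and 10, of the manganese branch of their family, were both higher in Chongqing and Gansu than in Shanxi and Hubei. Metal tolerance protein 9 (DN23062) had 13.9, 12.2 and 11.5 CPM in Chongqing, 12.4, 14.7 and 14.9 CPM in Gansu, 1.70, 1.57 and 1.76 CPM in Shanxi and 0.698, 0.446 and 0.171 CPM in Hubei. Chongqing and Gansu overlapped, and Gansu over Hubei was 5.00 ± 0.28 (adjusted p = 8.8e-09). Metal tolerance protein 10 (DN22675) had 37.8 ± 2.02 CPM in Chongqing, 42.9 ± 2.96 CPM in Gansu, 23.3 ± 1.96 CPM in Shanxi and 22.6 ± 2.03 CPM in Hubei. Other members of that branch did not share this order. Metal tolerance protein 11 (DN13814) had 22.4, 23.3 and 18.1 CPM in Chongqing, 14.4, 14.5 and 13.9 CPM in Gansu, 10.9, 9.02 and 10.1 CPM in Shanxi and 25.1, 23.0 and 20.1 CPM in Hubei. Metal tolerance protein 8 (DN13493) averaged 13.2 ± 0.677 CPM in Chongqing and 13.1 ± 1.23 CPM in Shanxi. Metal tolerance protein 1, the vacuolar zinc carrier of Arabidopsis, matched a pair of well-covered unigenes that changed in opposite directions in Shanxi over Hubei. DN18040 had 31.3 ± 3.56 CPM in Shanxi and 45.8 ± 4.73 CPM in Hubei (-0.55 ± 0.13, adjusted p = 0.0039), whereas DN21363 had 37.7 ± 8.95 CPM in Shanxi and 1.10 ± 0.957 CPM in Hubei (5.07 ± 0.47, adjusted p = 1.5e-06), and the sum over this match was 0.61 in that pair. Both unigenes of copper transporter 5.1 were called, and the abundant one (DN18882) had 27.0 ± 1.71 CPM in Chongqing, 31.6 ± 2.40 CPM in Gansu, 38.2 ± 4.19 CPM in Shanxi and 41.5 ± 4.13 CPM in Hubei, a log2 fold change of -0.62 ± 0.10 in Chongqing over Hubei (adjusted p = 0.0002). The call of the other (DN31328, adjusted p = 0.022 for any difference between areas) was lost without Gansu library 1 (adjusted p = 0.12) or Gansu library 3 (adjusted p = 0.07).

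The 7 ferric reductase unigenes were all called, where 70.4% of all tested unigenes were. Their summed level was 202 ± 7.19 CPM in Chongqing, 124 ± 6.99 CPM in Gansu, 69.4 ± 0.994 CPM in Shanxi and 62.8 ± 2.99 CPM in Hubei. By unigene the areas were mixed, with 3 highest in Chongqing, 1 in Shanxi and 3 in Hubei. Chongqing over Shanxi had 3 higher and 4 lower (42.9% and 57.1%, against 23.0% and 24.8% of all). Ferric reduction oxidase 1 (DN22706), with 65.1% of that sum (58.6% in FPKM), had 149, 139 and 135 CPM in Chongqing, 98.6, 108 and 98.0 CPM in Gansu, 23.9, 24.5 and 25.6 CPM in Shanxi and 34.7, 27.8 and 30.9 CPM in Hubei. All areas were separate, and Chongqing over Shanxi was 2.51 ± 0.08 (adjusted p = 6e-11). FRO2, the reductase of the root surface in Arabidopsis, matched DN17316, with 38.2, 36.9 and 35.4 CPM in Chongqing, 8.38, 12.5 and 12.2 CPM in Gansu, 3.05, 2.58 and 2.38 CPM in Shanxi and 8.10, 4.01 and 5.76 CPM in Hubei (3.78 ± 0.23 in Chongqing over Shanxi, adjusted p = 2e-08). The other 3 FRO2 unigenes had lower levels and ran the other way, each lower in Chongqing than in Shanxi and than in Hubei. FRO7, named for the chloroplast (DN24602), was highest in Shanxi, with 0.890 to 1.11 CPM in Chongqing, 3.02, 3.75 and 4.11 CPM in Gansu, 22.1, 24.0 and 22.4 CPM in Shanxi and 3.07, 4.77 and 4.52 CPM in Hubei. Gansu and Hubei overlapped and the other areas did not (-4.50 ± 0.21 in Chongqing over Shanxi, adjusted p = 1e-09).

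Of 10 tested unigenes of ferritin, the iron store of plastids, 3 were called between areas, where 70.4% of all tested unigenes were, and the summed level was 643 ± 25.7 CPM in Chongqing, 609 ± 52.1 CPM in Gansu, 569 ± 28.4 CPM in Shanxi and 581 ± 34.8 CPM in Hubei. The most abundant, ferritin-3 DN21937_c0_g2, had 431, 464 and 419 CPM in Chongqing, 419, 469 and 393 CPM in Gansu, 317, 279 and 316 CPM in Shanxi and 348, 333 and 302 CPM in Hubei. Chongqing and Gansu overlapped and lay above Shanxi and Hubei, which overlapped (0.53 ± 0.08 in Chongqing over Shanxi, adjusted p = 0.00013). A unigene with the same best match, DN21937_c0_g1, had the other order, with 83.7 ± 4.62 CPM in Chongqing, 55.7 ± 7.77 CPM in Gansu, 127 ± 10.0 CPM in Shanxi and 132 ± 6.74 CPM in Hubei. Chongqing over Shanxi was -0.61 ± 0.09 for it (adjusted p = 0.00013), and the sum of both gave 0.30. The third called, ferritin-1 (DN21092), had 13.6 ± 1.51 CPM in Chongqing, 5.66 ± 2.17 CPM in Gansu, 28.9 ± 3.14 CPM in Shanxi and 6.94 ± 4.19 CPM in Hubei (adjusted p = 0.00033 for any difference between areas). Vacuolar iron transporter 1 (DN14728), which moves iron into the vacuole, had 19.3, 22.8 and 21.2 CPM in Chongqing, 28.4, 33.4 and 26.1 CPM in Gansu, 2.96, 2.33 and 3.44 CPM in Shanxi and 9.73, 7.98 and 7.43 CPM in Hubei. The areas were separate, with 3.33 ± 0.16 in Gansu over Shanxi (adjusted p = 2.9e-09).

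Genes for nicotianamine, a metal chelator, showed their contrast in the YSL transporters, which carry metals bound to it. Of 10 YSL unigenes 8 were called, where 70.4% of all tested unigenes and 81.9% of those with at least 1 CPM were. Chongqing over Shanxi had 7 higher and 1 lower, against 23.0% and 24.8% of all. Gansu over Shanxi had 6 of the 10 higher, against 21.2% of all. Shanxi was lowest for 6, where it was for 14305 of all 60756. The YSL sum was 308 ± 14.5 CPM in Chongqing, 227 ± 17.2 CPM in Gansu, 136 ± 7.18 CPM in Shanxi and 218 ± 9.72 CPM in Hubei. YSL1 (DN21486) had 93.9, 93.7 and 90.3 CPM in Chongqing, 28.5, 37.9 and 30.8 CPM in Gansu, 10.8, 11.6 and 9.16 CPM in Shanxi and 15.6, 14.0 and 13.1 CPM in Hubei. All areas were separate, and Chongqing over Shanxi was 3.14 ± 0.12 (adjusted p = 1.8e-10). A further YSL1 unigene (DN21283) was high in 2 areas, with 38.4, 42.4 and 37.9 CPM in Chongqing, 1.61, 1.83 and 1.07 CPM in Gansu, 1.43, 0.678 and 1.28 CPM in Shanxi and 29.1, 30.1 and 30.1 CPM in Hubei. Gansu over Hubei was -4.32 ± 0.19 for it (adjusted p = 8.1e-10); the assembly files this unigene and a sulfate transporter 4.2 under the same gene.

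YSL7 matched unigenes with opposite patterns. DN2367 was close to absent outside Hubei, with 0.257, 0.174 and 0.297 CPM in Chongqing, 0.292, 0.406 and 0.616 CPM in Gansu, 0.0448, 0.169 and 0.0440 CPM in Shanxi and 72.5, 61.8 and 59.7 CPM in Hubei. Its log2 fold change in Chongqing over Hubei was -8.02 ± 0.23 (adjusted p = 1.2e-11). DN15597 was lowest in Hubei, with 48.8, 52.5 and 44.1 CPM in Chongqing, 58.5, 69.4 and 58.8 CPM in Gansu, 65.7, 57.4 and 64.7 CPM in Shanxi and 17.6, 16.3 and 15.9 CPM in Hubei (1.55 ± 0.10 in Chongqing over Hubei, adjusted p = 2e-08). Over the 3 unigenes of this match the sum gave -0.59 in Chongqing over Hubei. YSL6 (DN22803) had 70.1 ± 4.25 CPM in Chongqing, 61.4 ± 3.75 CPM in Gansu, 37.2 ± 0.983 CPM in Shanxi and 42.1 ± 3.22 CPM in Hubei. The enzyme that makes nicotianamine, nicotianamine synthase (DN10697), was not called, with 3.08 ± 0.629 CPM in Chongqing, 3.60 ± 0.693 CPM in Gansu, 2.30 ± 0.758 CPM in Shanxi and 3.71 ± 1.03 CPM in Hubei. Of 3 unigenes matching nicotianamine aminotransferase 1, an enzyme of siderophore synthesis in grasses, 1 was called (DN12851), with 16.4 ± 2.26 CPM in Chongqing, 5.79 ± 0.737 CPM in Gansu, 15.8 ± 1.02 CPM in Shanxi and 17.8 ± 1.89 CPM in Hubei.

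Metallothioneins had the highest summed level of the groups in every area. All 9 were called, where 70.4% of all tested unigenes and 91.5% of those with at least 10 CPM were. Their summed level was 16652 ± 748 CPM in Chongqing, 7446 ± 520 CPM in Gansu, 4514 ± 281 CPM in Shanxi and 8661 ± 489 CPM in Hubei. Chongqing over Gansu had 7 higher (77.8%) and 2 lower (22.2%), against 19.4% and 19.1% of all, with a median log2 fold change of 1.35. Gansu over Hubei had 3 higher (33.3%) and 6 lower (66.7%), against 24.0% and 26.5%, with a median of -1.15. The type 2 unigene DN21621 had 4303, 4523 and 4008 CPM in Chongqing, 2321, 2581 and 2236 CPM in Gansu, 3597, 3193 and 3460 CPM in Shanxi and 6031, 5636 and 4895 CPM in Hubei. No area overlapped another, and the largest contrast was Gansu over Hubei, at -1.21 ± 0.09 (adjusted p = 7.7e-08).

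The other abundant metallothioneins had far wider ranges. Type 2 DN10661 had 4655, 4642 and 4317 CPM in Chongqing, 3513, 3832 and 3366 CPM in Gansu, 198, 164 and 183 CPM in Shanxi and 258, 234 and 208 CPM in Hubei. Chongqing and Gansu lay far above Shanxi and Hubei (log2 fold change 4.64 ± 0.10 in Chongqing over Shanxi, adjusted p = 1.4e-12). Type 2 DN15530, with the same best match, paired Chongqing with Hubei instead, at 2008, 2041 and 2085 CPM in Chongqing, 12.1, 13.8 and 2.79 CPM in Gansu, 4.17, 2.46 and 0.969 CPM in Shanxi and 1521, 1522 and 1708 CPM in Hubei. Gansu and Shanxi overlapped, and Chongqing over Gansu was 7.76 ± 0.45 (adjusted p = 1.7e-08). Summed over the 3 unigenes of this match, which hold both and DN21621, Chongqing over Hubei was 0.67, Gansu over Shanxi 0.76 and Gansu over Hubei -0.19. Metallothionein-like protein 1 (DN20244) had 2805, 2923 and 2637 CPM in Chongqing, 537, 510 and 511 CPM in Gansu, 232, 224 and 236 CPM in Shanxi and 789, 823 and 855 CPM in Hubei, and Chongqing over Shanxi was 3.60 ± 0.06 (adjusted p = 2.4e-13). Metallothionein-like protein 2 (DN12142) was highest in Chongqing and lowest in Hubei, with 2788, 3000 and 2608 CPM in Chongqing, 825, 955 and 748 CPM in Gansu, 437, 353 and 409 CPM in Shanxi and 173, 155 and 143 CPM in Hubei. Neither of these had any overlap between areas, and Chongqing over Hubei was 4.16 ± 0.12 for DN12142 (adjusted p = 1.1e-11).

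Type 3 metallothioneins were less abundant and did not share the Chongqing maximum. DN31465 had 0.686, 0.479 and 0.254 CPM in Chongqing, 2.92, 3.09 and 2.71 CPM in Gansu, 35.5, 30.8 and 36.4 CPM in Shanxi and 6.75, 6.47 and 6.15 CPM in Hubei, all areas apart, and Chongqing over Shanxi was -6.16 ± 0.21 (adjusted p = 7.4e-11). DN13177 was highest in Hubei, with 170 ± 6.89 CPM in Chongqing, 66.5 ± 4.70 CPM in Gansu, 183 ± 7.74 CPM in Shanxi and 293 ± 8.44 CPM in Hubei. DN14108 was highest in Gansu, with 5.76 ± 0.573 CPM in Chongqing, 51.7 ± 0.999 CPM in Gansu, 25.6 ± 1.10 CPM in Shanxi and 18.8 ± 0.774 CPM in Hubei. A type 2 unigene with a tomato match (DN20327) was lowest in Gansu, with 27.2 ± 1.58 CPM in Chongqing, 3.44 ± 1.20 CPM in Gansu, 41.0 ± 1.96 CPM in Shanxi and 26.0 ± 0.547 CPM in Hubei.

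**Figure D4:**
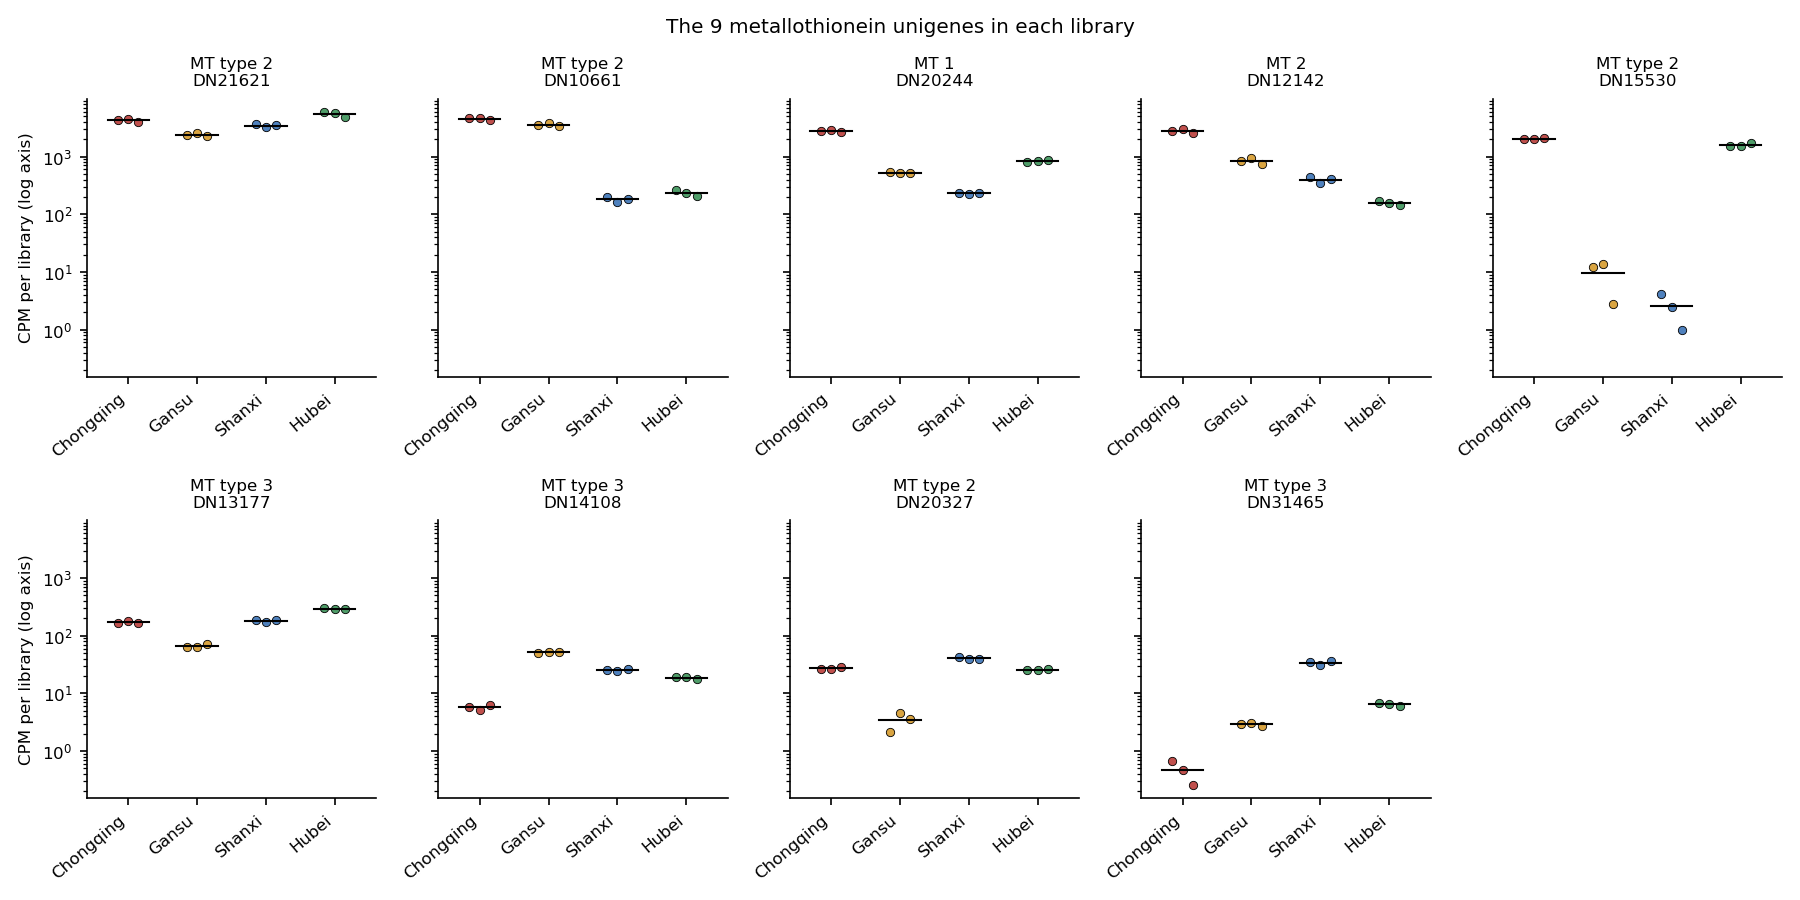
CPM of the 9 metallothionein unigenes in each library (points) with the mean of each area (line), on a shared log axis. DN10661 is high in Chongqing and Gansu, DN15530 in Chongqing and Hubei, DN12142 is highest in Chongqing (2799 CPM) and lowest in Hubei (157 CPM), and DN31465 is highest in Shanxi (34.3 CPM).

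Unigenes with the same best match could differ in area. Of 60 proteins that were the best match of 2 or more tested unigenes (173 unigenes, up to 7 for 1 protein), 39 (65.0%) had unigenes called in opposite directions in at least 1 pair, close to the 60.8% of all 5915 such proteins in the table. Summing counts by best match gave 117 of 123 proteins called between areas (95.1%), against 91.1% of 11642 proteins summed in the same way over the whole table. Whether such unigenes are separate genes, alleles or fragments was not tested.

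**Figure D5:**
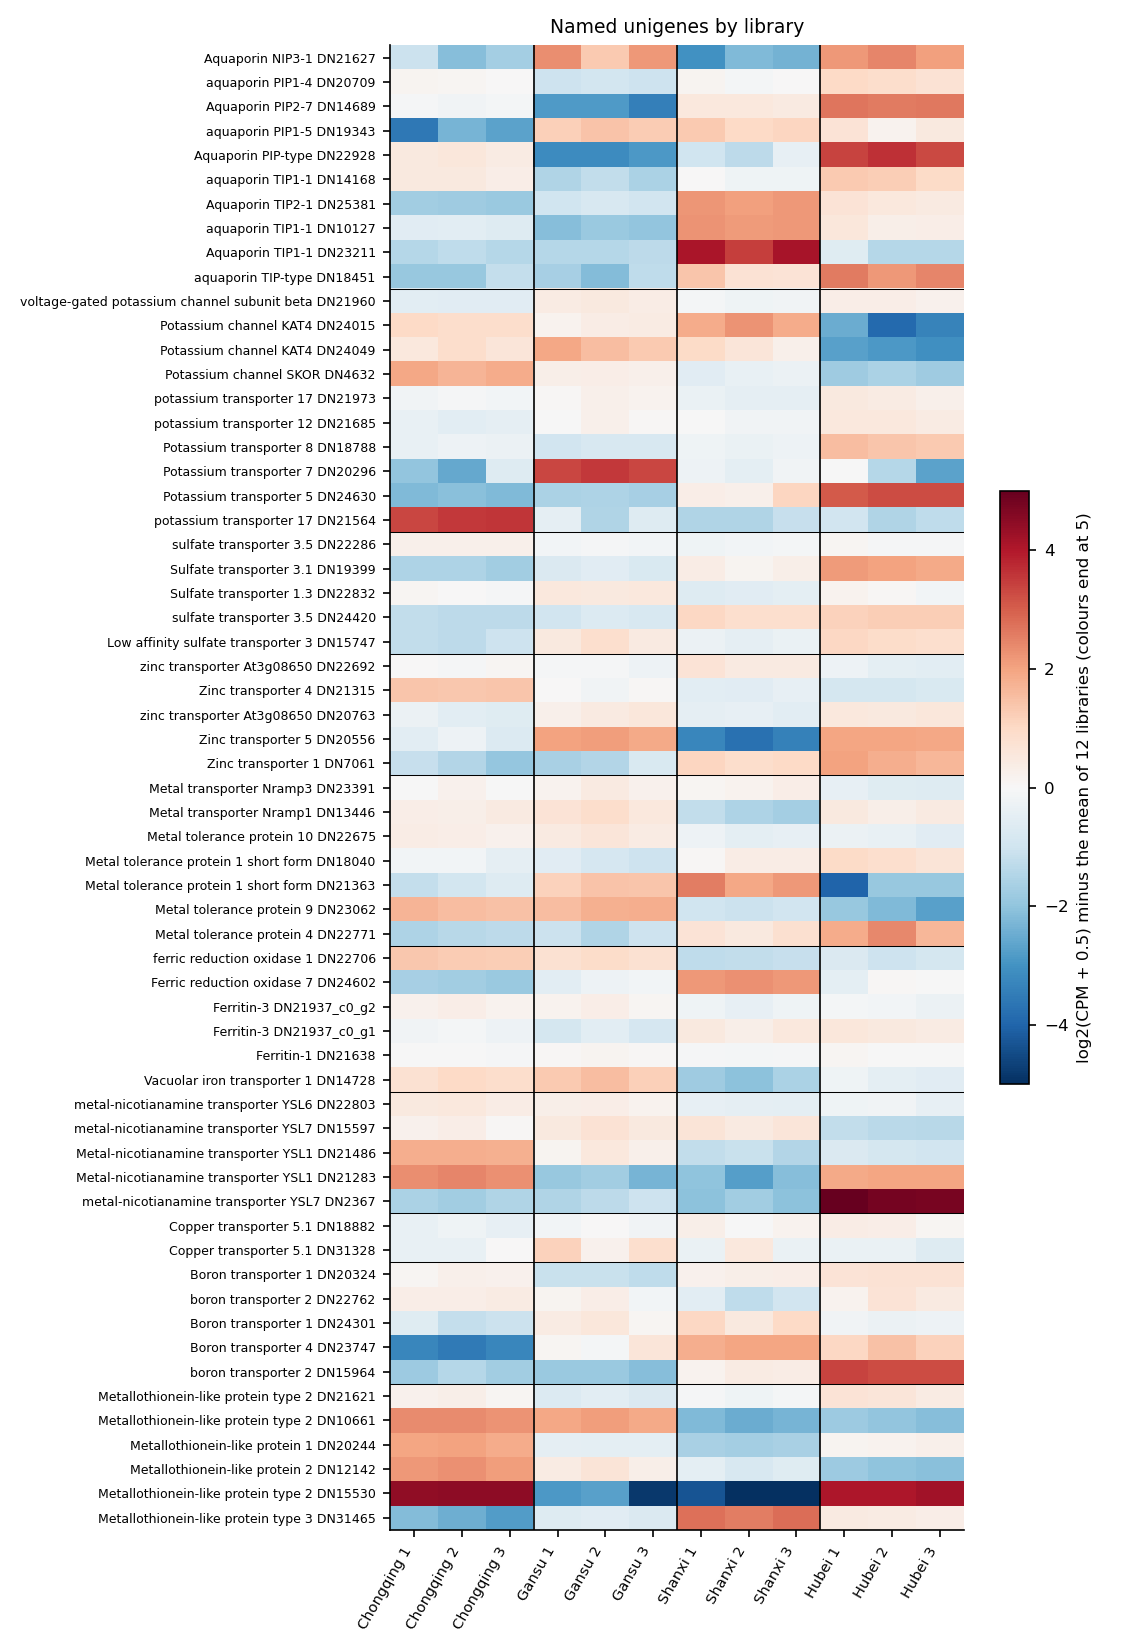
Colours give log2(CPM + 0.5) of 61 named unigenes in each library minus the mean of the 12 libraries, with lines between areas and between substrate groups; colours end at 5. Libraries of the same area share a colour in nearly all rows, and rows of 1 group, such as the 6 metallothioneins or the 10 aquaporins, peak in different areas.

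Genes that work beside these transporters were read from lists of related descriptions, whose called shares stand against 70.4% of all tested unigenes. Proton pumps, which supply the gradient that carriers use, had 56 of 60 called (93.3%). Chongqing over Hubei had 32 higher and 13 lower, or 53.3% and 21.7%, against 23.6% and 25.9% of all, and 27 had their highest mean in Chongqing. The vacuolar pyrophosphatase (DN21556) had 718 ± 40.2 CPM in Chongqing, 400 ± 43.3 CPM in Gansu, 510 ± 41.8 CPM in Shanxi and 743 ± 70.0 CPM in Hubei. A list of iron uptake and signalling genes had 13 of 18 called (72.2%), a share near that of all unigenes. Its search terms also took in frataxin and iron-sulfur cluster proteins, so its counts need not cover uptake and signalling alone. In Chongqing over Hubei 12 of 18 were lower (66.7%), against 25.9% of all, and 11 of 18 (61.1%) were highest in Hubei, against 27.3%. ILR3 (DN23018), a transcription factor of the iron response, had 37.8 ± 1.64 CPM in Chongqing, 35.1 ± 1.55 CPM in Gansu, 45.4 ± 3.14 CPM in Shanxi and 64.8 ± 5.00 CPM in Hubei. Another ILR3 unigene (DN12084), the most abundant of the list in FPKM, was not called (adjusted p = 0.12 for any difference between areas). It had 30.3 ± 0.691 CPM in Chongqing, 30.8 ± 3.41 CPM in Gansu, 31.2 ± 2.40 CPM in Shanxi and 36.0 ± 3.70 CPM in Hubei. Sulfate assimilation had 35 of 37 called (94.6%), and ATP sulfurylase 1 (DN16951), its entry enzyme, was lowest in Shanxi, with 322 ± 5.97 CPM in Chongqing, 363 ± 24.9 CPM in Gansu, 83.7 ± 6.65 CPM in Shanxi and 327 ± 19.7 CPM in Hubei. A list of potassium and sodium regulators, antiporters, exchangers and cyclic nucleotide-gated channels had 105 of 124 called (84.7%). Among them was CIPK23 (DN20611_c0_g2), a kinase that activates potassium uptake in Arabidopsis, with 151 ± 2.29 CPM in Chongqing, 98.1 ± 1.69 CPM in Gansu, 83.9 ± 4.39 CPM in Shanxi and 165 ± 2.14 CPM in Hubei. A list of heavy metal pumps, metal-binding proteins, vacuolar cation exchangers and magnesium and molybdate transporters had 88 of 96 called (91.7%). In Gansu over Hubei 20 were higher and 46 lower, or 20.8% and 47.9%, against 24.0% and 26.5% of all.

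Lists of descriptions that name cell types of a root also held called unigenes. Summed endodermis markers (44 unigenes) were 659 to 685 CPM in Chongqing, 506 to 520 CPM in Gansu, 525 to 529 CPM in Shanxi and 353 to 393 CPM in Hubei. By unigene, 12 of 43 tested endodermis markers had their highest mean in Chongqing, 11 in Gansu, 9 in Shanxi and 11 in Hubei. In Gansu over Shanxi 22 were higher and 9 lower (51.2% and 20.9%), against 21.2% and 22.9% of all tested unigenes. The sum in CPM was lower in Gansu, but the sum in FPKM was 535 ± 8.50 in Gansu and 487 ± 14.3 in Shanxi. The list was led by CASP-like proteins, and whether these mark the endodermis alone was not tested. Phloem markers (22) were 83.4 to 93.5 CPM in Chongqing, 271 to 297 CPM in Gansu, 368 to 407 CPM in Shanxi and 194 to 212 CPM in Hubei. The phloem sum was led by PHLOEM PROTEIN 2-LIKE A1 (DN21634), with 62.2% of it (69.7% in FPKM). By unigene, 9 of 18 tested phloem markers had their highest mean in Hubei and 5 in Shanxi. Markers of green tissue (30) were lowest in Gansu, as the aquaporin sum was, with 534 to 561 CPM in Chongqing, 287 to 332 CPM in Gansu, 478 to 521 CPM in Shanxi and 530 to 596 CPM in Hubei. In FPKM the green tissue sum was 448 ± 2.56 in Chongqing, 169 ± 9.12 in Gansu, 291 ± 5.99 in Shanxi and 373 ± 13.2 in Hubei. It was lowest in Gansu again but highest in Chongqing. By unigene 13 of 27 tested green tissue markers were highest in Chongqing and 10 in Hubei. The root hair list (10) is led by unigenes of ROOT HAIR DEFECTIVE 3, a broadly expressed protein of the endoplasmic reticulum named for a mutant phenotype, and does not mark root hair cells alone. Its sum was 431 to 486 CPM in Chongqing, 403 to 461 CPM in Gansu, 429 to 492 CPM in Shanxi and 342 to 376 CPM in Hubei. Summed xylem markers (19) averaged 6.21 CPM in Chongqing, 13.5 CPM in Gansu, 9.28 CPM in Shanxi and 16.4 CPM in Hubei. Of that, 42.9% was IRREGULAR XYLEM 15 (DN18226), but 21.5% in FPKM. By unigene 8 of 9 tested xylem markers had their highest mean in Gansu. The FPKM sum was also highest there, at 11.4 ± 1.89 in Chongqing, 26.5 ± 0.828 in Gansu, 13.5 ± 2.41 in Shanxi and 20.8 ± 1.02 in Hubei. Of these lists 41 of 43 endodermis, 17 of 18 phloem, 26 of 27 green tissue, 8 of 9 root hair and 7 of 9 xylem markers tested were called, against 70.4% of all tested unigenes and 91.5% of those with at least 10 CPM. No marker was at 0 in all 12 libraries. Their part in the differences above was not tested.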

How the data were processed

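RNA-seq of 12 root libraries, 3 from each of 4 areas, was read from 1 table of unigenes assembled without a genome. The authors deposited estimated counts and FPKM per unigene with a best Swiss-Prot match; the submitters' processing notes name FastQC, Trimmomatic, Bowtie2, featureCounts, RSEM and DESeq2 without versions or roles. Estimated counts were rounded, and unigenes with low counts were left out (filterByExpr by area), which left 60756 unigenes. One edgeR 4.0.16 quasi-likelihood fit (R 4.3.3, TMM scaling) over all libraries tested any difference between areas and each of the 6 pairs, with Benjamini-Hochberg adjustment over all tested unigenes; CPM were computed from the same scaled counts. Standard errors of log2 fold changes were derived from the F statistic. Floors of 3 counts over the libraries of an area stand for 0 counts; depth was 19920136 to 23319714 counts per library.

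Named unigenes were, in each substrate group, the 3 tested with the highest mean CPM and the 3 of at least 1 CPM with the smallest p, and in each pair the 3 highest and 3 lowest called log2 fold changes among those of at least 2 CPM, with more than 3 counts in both areas and no overlap of libraries, 61 in all. PIP1-5 DN16254, PIP2-4, TIP2-2, TIP1-1 DN14222, NIP4-2, KCO3, AKT5, sulfate transporter 4.2, BOR4 DN21245, copper transporter DN31328, metal tolerance proteins 8 and 11, FRO2, ferritin-1 DN21092, nicotianamine synthase, nicotianamine aminotransferase 1, ferritin DN25876, type 3 metallothioneins DN13177 and DN14108, type 2 DN20327 and the members of the neighbouring lists were chosen after their values were seen. The members and lists were chosen with earlier results of these data known.

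Alternatives were DESeq2 1.42.0, its size factors in edgeR, no or a stricter count filter, limma 3.58.1 on the deposited FPKM with 2 pseudocounts and without a filter, a replicate block, only the areas compared, each library left out, counts summed per best match and a 2-fold minimum. The fit was tested on simulated data.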

Additional observations from a re-analysis of the deposited data

How the results depend on the processing

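Of the counts over all 236 tested unigenes, summing counts per best match, which leaves 123 proteins, moved 9 by more than 1.5 times: 117 called between areas; 38 lower in Chongqing over Gansu, 33 lower in Chongqing over Shanxi, 57 lower in Chongqing over Hubei and 51 lower in Gansu over Shanxi; 33 higher and 64 lower in Gansu over Hubei; 32 higher and 66 lower in Shanxi over Hubei. A 2-fold minimum left 39 lower in Chongqing over Gansu. With 1 library left out the counts were 197 to 206 between areas, 68 to 75 higher and 55 to 63 lower in Chongqing over Gansu, 63 to 68 and 65 to 70 in Chongqing over Shanxi, 45 to 53 and 94 to 100 in Chongqing over Hubei, 61 to 68 and 75 to 88 in Gansu over Shanxi, 51 to 56 and 99 to 108 in Gansu over Hubei, and 49 to 55 and 104 to 110 in Shanxi over Hubei.

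Libraries with the same number share only that number (correlations of their deviations -0.0663 to 0.0636), and with the replicate number as a block 196 unigenes were called between areas, 48 higher and 97 lower in Chongqing over Hubei and 53 higher and 104 lower in Gansu over Hubei.

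Summing per best match reversed the sign of 43 log2 fold changes of named unigenes, and no other alternative reversed any. Some of these sums were themselves not called. They were Chongqing over Gansu for DN24015, DN24630 and DN21564, Chongqing over Shanxi for DN24420, Chongqing over Hubei for DN20763, Gansu over Shanxi for DN22692 and Shanxi over Hubei for DN24301. By the sum, Chongqing over Gansu became 0.72 for PIP1-5 DN19343, -0.04 for KAT4 DN24015, 0.90 for potassium transporter 5 DN24630, -0.04 for potassium transporter 17 DN21564, 0.28 for sulfate transporter 3.5 DN24420, -0.57 for metal tolerance protein 1 DN18040 and 0.72 for BOR1 DN24301. Chongqing over Shanxi became 0.20 for TIP1-1 DN10127, 2.39 for TIP1-1 DN23211, 0.02 for DN24420, 0.64 for metal tolerance protein 4 DN22771, 0.30 for ferritin-3 DN21937_c0_g1, -0.32 for YSL7 DN2367 and -0.50 for BOR2 DN22762. Chongqing over Hubei became 0.93 for DN19343, -0.15 for DN21564, -0.10 for sulfate transporter 3.5 DN22286, 0.01 for At3g08650 DN20763, -0.80 for metal tolerance protein 1 DN21363, 0.28 for DN21937_c0_g1, -0.59 for YSL7 DN15597 and 0.67 for metallothionein DN21621. Gansu over Shanxi became 1.05 for DN23211, -0.80 for KAT4 DN24049, 0.08 for At3g08650 DN22692, 0.19 for DN21937_c0_g1, -0.69 for DN22762, 0.46 for BOR4 DN23747 and 0.76 for DN21621. Gansu over Hubei became -0.23 for DN21363, 0.18 for DN21937_c0_g1, -0.22 for DN15597, -0.27 for YSL1 DN21486, -0.25 for copper transporter 5.1 DN31328, -1.11 for DN24301, 0.87 for DN23747 and -0.19 for metallothionein DN10661. Shanxi over Hubei became -0.75 for DN10127, -3.07 for DN23211, 0.30 for DN20763, 0.61 for DN18040, -0.27 for DN15597 and -0.09 for DN24301. Each sum adds unigenes with other area orders, by its construction. Floors and intervals of unigenes with few counts cover counting error only.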
